A study of Mus musculus with 2 samples.

Results

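The genes described here encode 10 secreted antimicrobial proteins of the skin: the beta-defensins Defb1, Defb3, Defb4, Defb6 and Defb14, the lipocalin Lcn2, the cathelicidin Camp, the peptidoglycan recognition protein Pglyrp1, the serum amyloid Saa3 and the ribonuclease Rnase4. They were found by gene name and took up 9 of the 26242 gene rows with a RefSeq transcript, because Defb4 and Defb6 share a row, as do Rnase4 and Ang. Each row was read in 2 RNA-seq libraries of ear epidermis from C57BL/6 mice, 1 from mice with a K14 conditional Il9ra KO and 1 from wild type mice. Ears of both genotypes had received 5% imiquimod cream for 6 days in a row, so the comparison is between genotypes under treatment. Imiquimod activates Toll-like receptor 7 and brings on psoriasis-like skin inflammation. Il9ra is the interleukin-9 receptor gene, listed as Il9r in the table, and K14 is keratin 14, a keratin of basal keratinocytes, so the deletion was aimed at the keratinocyte lineage. The wild type library is titled as the control. The labels give neither the age or sex of the mice, the number of animals behind each library nor the alleles that the control animals carried.

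Antimicrobial peptides and proteins are part of the innate defence of the epidermis. Beta-defensins and cathelicidins are short cationic peptides that disrupt microbial membranes, and lipocalin-2 withholds iron by binding bacterial siderophores. Keratinocytes make several of them in response to interleukin-17, interleukin-22 and interleukin-1 family cytokines, and their levels are high in psoriatic skin.

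With 1 library per genotype there were no replicates, so the spread between animals is unknown for every difference, and no p-value was computed. Levels are FPKM, the fragments of a transcript divided by its length and by the depth of its library. Differences are log2 of the ratio of FPKM plus 1, knockout over wild type, a scale that understates differences of low genes. Depth, read from how finely the lowest FPKM values are spaced, came to about 32900000 fragments in the knockout library, against about 25400000 in wild type. The 12 keratinocyte markers checked were all present, with Krt14 at 8083 FPKM in the knockout library, against 7421 FPKM in wild type. Il9r was listed at 0.011 FPKM in the knockout library, against 0.039 FPKM in wild type, too low to check the genotype label.

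Lcn2 was 1.96-fold higher in the knockout library, with a log2 difference of 0.91, and the shared row of Defb4 and Defb6 was 1.42-fold higher, with a log2 difference of 0.51. These were the 2 largest differences with 1 FPKM added. With 0.1 FPKM added Lcn2 stayed first, at 0.97, but the low rows of Pglyrp1, Saa3 and Defb3, at 0.92, 0.59 and 0.58, lay above the 0.51 of Defb4 and Defb6. Defb1, Defb14 and the row of Rnase4 and Ang had ratios between 0.917 and 1.04. Camp, Pglyrp1 and Saa3 were under 1 FPKM in both libraries. Of the 9 rows, 8 were numerically higher in the knockout library, and 1 was lower. Of the 6 rows with a mean of at least 1 FPKM, 5 were higher and 1 lower. Of the 11694 genes with such a mean, 44.3% were higher and 55.6% lower. Fold limits were applied to FPKM plus 1. Past a ratio of 5 to 4, 3 rows were higher (Lcn2, Defb4 with Defb6, and Defb3) and 0 lower, against 4.32% of all genes higher and 5.64% lower. At 1.5-fold or more, 1 row was higher, Lcn2, and 0 lower, against 1.18% of all genes higher and 1.3% lower. At 2-fold or more, 0 rows were higher or lower, against 0.393% of all genes higher and 0.334% lower. The median log2 difference was 0.24 over the 9 rows, which is the value of Saa3, and -0.02 over all genes tested. The median over the 9 rows was 0.51 with 0.1 FPKM added, 0.067 with 5 FPKM added and 0.16 without the row of Defb4 and Defb6. In bulk tissue, fewer cells of a type and less RNA per cell cannot be told apart, which holds for every difference given here.

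**Figure D1:**
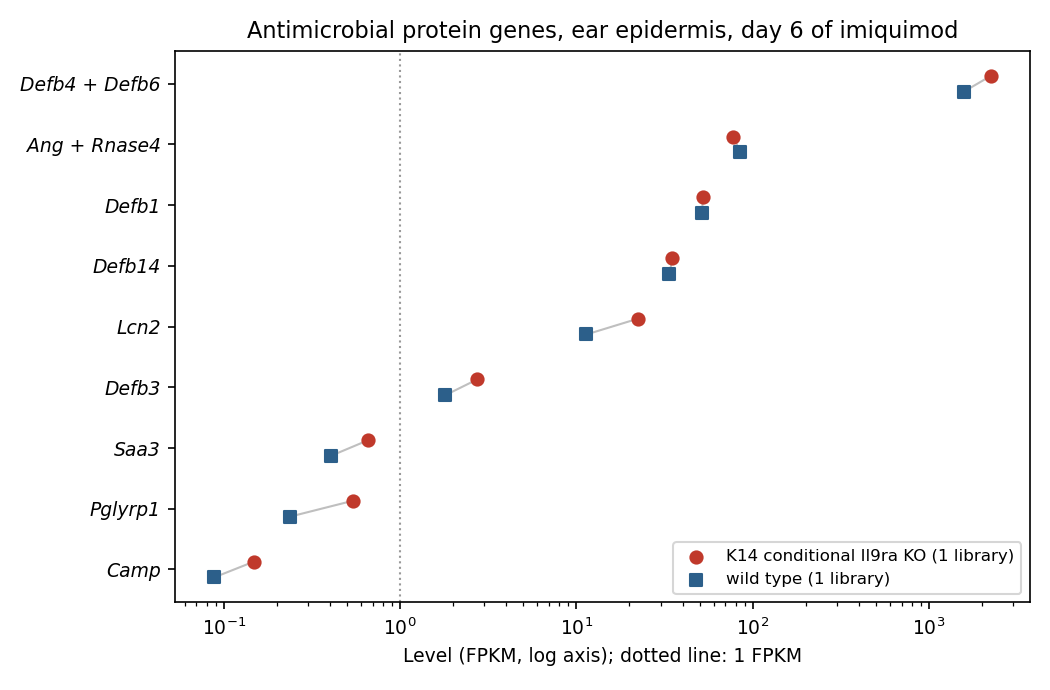
Level of each antimicrobial protein row in FPKM on a log axis, ordered by the mean of both libraries; circles are the knockout library and squares the wild type library, 1 library each, and the dotted line marks 1 FPKM. The row of Defb4 and Defb6, at 2242 and 1575 FPKM, stands far above the others, and Camp, at 0.149 and 0.0884 FPKM, is lowest.

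The 5 beta-defensin genes lie on the plus strand of chromosome 8 (GRCm38). By RefSeq positions Defb14 runs from 19160244 to 19195309, Defb4 from 19198704 to 19201547, Defb6 from 19225478 to 19228209 and Defb3 from 19293361 to 19295339. Defb1 is 2.48 Mb further along, from 21776555 to 21795185. Each has 2 exons in GENCODE M21. The coding sequences are printed because they show what makes these genes a family and how far their reads can be told apart; capitals mark the in-frame cysteine codons, and all other bases are in lower case.
Defb1: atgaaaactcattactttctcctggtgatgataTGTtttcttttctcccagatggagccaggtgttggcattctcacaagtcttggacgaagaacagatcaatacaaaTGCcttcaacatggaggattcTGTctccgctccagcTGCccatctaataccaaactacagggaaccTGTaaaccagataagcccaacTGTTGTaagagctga
Defb3: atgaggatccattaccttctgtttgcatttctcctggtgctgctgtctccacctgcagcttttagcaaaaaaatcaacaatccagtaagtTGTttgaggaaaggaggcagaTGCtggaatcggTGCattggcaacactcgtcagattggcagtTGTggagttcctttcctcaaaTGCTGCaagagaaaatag
Defb4: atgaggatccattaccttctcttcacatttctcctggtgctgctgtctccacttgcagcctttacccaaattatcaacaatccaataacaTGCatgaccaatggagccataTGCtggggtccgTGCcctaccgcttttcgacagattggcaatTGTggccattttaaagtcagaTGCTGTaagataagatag
Defb6: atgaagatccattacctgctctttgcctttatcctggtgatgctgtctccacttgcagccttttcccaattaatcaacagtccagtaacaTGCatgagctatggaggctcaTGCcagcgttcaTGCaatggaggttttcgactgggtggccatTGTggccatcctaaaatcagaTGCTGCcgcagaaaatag
Defb14: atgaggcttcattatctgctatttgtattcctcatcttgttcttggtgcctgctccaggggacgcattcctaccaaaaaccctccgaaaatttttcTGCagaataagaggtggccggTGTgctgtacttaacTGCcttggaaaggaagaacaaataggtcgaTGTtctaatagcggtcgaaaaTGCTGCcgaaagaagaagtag

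The last 6 cysteine codons of each gene follow the spacing of the beta-defensin fold, whose cysteines pair into disulfide bonds. In Defb3, Defb4 and Defb6 the cysteines are separated by 6, 3, 9, 6 and 0 other codons, and in Defb1 and Defb14 by 6, 4, 9, 6 and 0. Defb1 has 1 further cysteine codon upstream of these. Over aligned coding bases Defb4 was 78.6% identical to Defb6 and 76.0% identical to Defb3, and Defb3 was 71.9% identical to Defb6. Defb1 and Defb14 were 50.8% identical to each other and at most 62.1% identical to any of the other 3. The longest stretch of identical bases between 2 of these transcripts was 33, between Defb3 and Defb4, and it was 26 between Defb4 and Defb6. The sources used here do not give how the authors divided reads among similar genes.

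The shared row of Defb4 and Defb6 was by far the most abundant of the 9 rows. Defb4 is an inducible beta-defensin of mouse epithelia. The shared row was at 2242 FPKM in the knockout library, against 1575 FPKM in wild type. This was 1.42-fold higher in the knockout library, with a log2 difference of 0.51. By its mean level the row ranked 42 among the 26242 gene rows. Among all genes tested 1.56% had a higher log2 difference, and of the 95 genes within 2-fold of its mean level 5% lay below -0.30 and 5% above 0.21. The row combines 2 RefSeq transcripts with 2 transcripts assembled from the reads, although the genes are 23.9 kb apart, so the values cannot be assigned to Defb4 or to Defb6. The row held 92.1% of the summed FPKM of the 9 rows in the knockout library and 89.5% in the wild type library. In GENCODE M21 the Defb4 transcript has 454 bases and the Defb6 transcript 323. Both are short relative to the estimated fragment lengths of 169 bases in the knockout library and 181 bases in wild type. The FPKM of the row is therefore imprecise, and with it the rank and the share. The authors' deposited table gave the row p = 0.0465 and q = 0.999, from a test of 2 libraries that holds no spread between animals.

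Defb3, an inducible beta-defensin, was at 2.74 FPKM in the knockout library, against 1.80 FPKM in wild type. Its log2 difference was 0.41, and the genes within 2-fold of its mean level lay mostly between -0.41 and 0.38, the points below and above which 5% fell. The Defb3 transcript has 275 bases in GENCODE M21, which is short relative to the estimated fragment lengths. These were 169 bases in the knockout library and 181 bases in the wild type library, so the FPKM of Defb3 is imprecise. The row also holds 1 transcript assembled from the reads, whose length was not used. Defb14, the mouse counterpart of an inducible human beta-defensin, was at 35.0 FPKM in the knockout library, against 33.7 FPKM in wild type, a log2 difference of 0.05. Its transcript in GENCODE M21, at 204 bases, is shorter still, but it holds the coding sequence alone. The RefSeq gene span extends past it at both ends, so the length behind the deposited value is uncertain. Defb1, a beta-defensin that epithelia make without stimulation, was at 52.0 FPKM in the knockout library, against 51.8 FPKM in wild type, a log2 difference of 0.01.

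Most of the defensin family was listed at 0. Among 43 deposited beta-defensin rows, 38 were listed at 0 in both libraries. The other 5 were the rows above and Defb2, which was at 0.281 FPKM in the knockout library and listed at 0 in the wild type library. All 16 alpha-defensin rows, a family known mainly from Paneth cells of the gut, were listed at 0 in both. From Defb14 to Defb2, a span of 2.68 Mb on chromosome 8, 25 rows carried a defensin name and 5 of them were above 0.

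Lcn2, which encodes lipocalin-2 (chromosome 2, 32384637 to 32387739, on the minus strand), was at 22.3 FPKM in the knockout library, against 11.4 FPKM in wild type. The level was 1.96-fold higher in the knockout library and the log2 difference was 0.91. Among all genes tested 49 had a higher log2 difference, or 0.419%. At its level the values rest on about 547 fragments in the knockout library and about 212 in the wild type library. This estimate uses the annotated length of 915 bases, although the row also holds 1 transcript assembled from the reads. Of 4325 genes within 2-fold of its mean level 5% lay below -0.30 and 5% above 0.25. The authors' deposited table gave Lcn2 p = 0.00395 and q = 0.495, from the same kind of test.

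**Figure D2:**
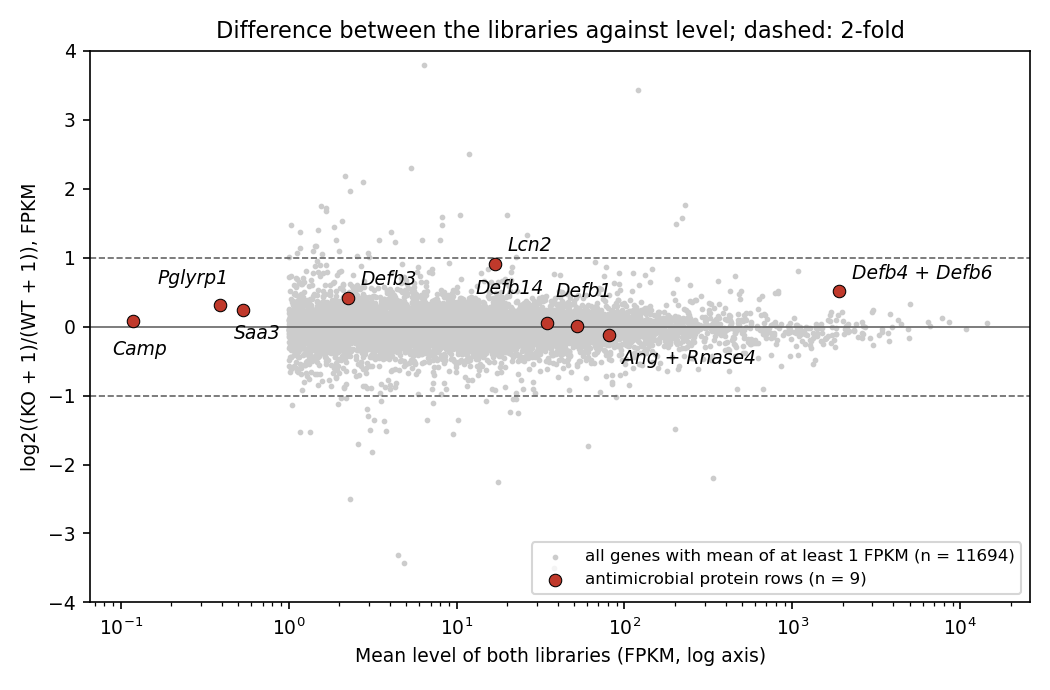
Log2 difference, knockout over wild type with 1 FPKM added, against the mean level of both libraries in FPKM on a log axis; grey points are the 11694 genes tested, red points the 9 antimicrobial protein rows and dashed lines 2-fold. Lcn2 at 0.91 and the row of Defb4 and Defb6 at 0.51 lie above most genes of similar level, while Defb1, Defb14 and the row of Rnase4 and Ang lie in the middle.

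Camp, Pglyrp1 and Saa3 were detected at levels that rest on a few fragments. Camp encodes the mouse cathelicidin, which neutrophil granules store and keratinocytes can make (chromosome 9, 109847377 to 109849456). It was at 0.149 FPKM in the knockout library, against 0.0884 FPKM in wild type, about 3 and about 1 fragments. Pglyrp1, a peptidoglycan-binding protein of neutrophil granules (chromosome 7, 18884690 to 18890438), was at 0.538 FPKM in the knockout library, against 0.238 FPKM in wild type, about 9 and about 3 fragments. Saa3, an acute-phase protein made locally in inflamed tissue (chromosome 7, 46711998 to 46719615), was at 0.661 FPKM in the knockout library, against 0.404 FPKM in wild type, about 8 and about 4 fragments. Their log2 differences of 0.08, 0.31 and 0.24 lay inside the middle 90% of the genes of similar level, and no difference could be read at this depth.

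Rnase4 encodes a secreted ribonuclease and shares its first exons with Ang, which encodes angiogenin, a ribonuclease with antimicrobial activity. Both begin at position 51091077 of chromosome 14 on the plus strand and share a row, so their values cannot be separated. The row was at 77.7 FPKM in the knockout library, against 84.8 FPKM in wild type, a log2 difference of -0.12. It was the only one of the 9 rows that was lower in the knockout library, and 73.95% of the genes tested had a higher difference. Of the other listed genes of the ribonuclease A family, Rnase2b (listed as Ear5), an eosinophil-type ribonuclease, was at 23.1 FPKM in the knockout library, against 14.2 FPKM in wild type. Rnase1 was at 14.3 and 10.4 FPKM in the same order, and Ang2 at 2.5 and 1.69 FPKM. The other 7 family genes above 0 averaged under 1 FPKM and lay in both directions. Rnase12 was at 1.15 FPKM in the knockout library, against 0.326 FPKM in wild type, while Ear2 was at 0.269 and 1.17 FPKM and Rnase6 at 0.164 and 0.493 FPKM in the same order. Ear1, Ear6, Rnase10 and Ang5 reached at most 0.231 FPKM in the knockout library, against 0.156 FPKM in wild type. The 5 family rows with a mean of at least 1 FPKM, that of Rnase4 and Ang and Rnh1 included, had a median log2 difference of 0.38, with 3 higher and 2 lower. Rnh1, the cytosolic inhibitor of these ribonucleases, was at 155.1 FPKM in the knockout library, against 172.0 FPKM in wild type. These genes lie in families of similar sequence, so single values are uncertain.

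Paralogues of Pglyrp1 and Saa3 were read on the same per-length scale. Pglyrp3 and Pglyrp4, the peptidoglycan recognition proteins typical of skin, were well above Pglyrp1. Pglyrp4 was at 10.01 FPKM in the knockout library, against 6.77 FPKM in wild type, a log2 difference of 0.50. Pglyrp3 was at 15.4 FPKM in the knockout library, against 14.9 FPKM in wild type, a log2 difference of 0.05. All 4 genes of that family were numerically higher in the knockout library, as were 44.3% of all genes tested. Pglyrp1 and Pglyrp2 were under 1 FPKM in both libraries. Pglyrp2 was at 0.877 FPKM in the knockout library, against 0.748 FPKM in wild type. Saa1 was at 0.713 FPKM in the knockout library, against 0.738 FPKM in wild type, and Saa2 and Saa4 were listed at 0 in both.

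Genes of a list of further antimicrobial and related proteins differed in both directions. Of 31 matched genes, 9 had a mean of at least 1 FPKM; 3 of these were higher and 6 lower in the knockout library. Their median log2 difference was -0.39. S100a8 and S100a9, the calprotectin subunits that sequester zinc and manganese, were at 353 and 300.1 FPKM in the knockout library, against 103.7 and 106.4 FPKM in wild type. They were the 2 genes of that list at least 2-fold higher, and Chi3l4 was the 1 gene at least 2-fold lower. Cxcl14 and Ccl20, chemokines with antimicrobial activity, were lower, Cxcl14 at 11.5 FPKM in the knockout library, against 22.6 FPKM in wild type. Ccl20 was at 325.8 FPKM in the knockout library, against 508.9 FPKM in wild type, and it shares the receptor CCR6 with several beta-defensins. Chi3l4 was listed at 0 in the knockout library and at 8.94 FPKM in the wild type library; this chitinase-like gene has close copies, so its value is uncertain. The antimicrobial lectins Reg3a, Reg3b and Reg3g and the neutrophil protein Ltf were listed at 0 in both.

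Genes of the cytokine pathway that induces several of these genes in keratinocytes were read as well. Of 34 genes of interleukin-17, interleukin-22, interleukin-1 and interleukin-36 signalling, 27 had a mean of at least 1 FPKM, 18 of them higher and 9 lower in the knockout library. Of all genes tested 44.3% were higher and 55.6% lower. The median log2 difference of the 27 genes was 0.06, against -0.02 over all genes tested, and 1 of the 27 was 2-fold apart. That gene was Il1b, at 4.32 FPKM in the knockout library, against 14.7 FPKM in wild type. Il36a (listed as Il1f6), a keratinocyte cytokine, was at 54.3 FPKM in the knockout library, against 38.4 FPKM in wild type, and Osmr, the oncostatin M receptor, at 7.24 and 5.09 FPKM in the same order. Il1rl2, the receptor for Il36a and its relatives, was at 19.2 FPKM in the knockout library, against 25.6 FPKM in wild type. Il20rb, a subunit of interleukin-20 family receptors, was at 100.3 and 106.1 FPKM in the same order. Nfkbiz, which encodes a regulator of Lcn2 and defensin transcription, was at 120.3 FPKM in the knockout library, against 151.2 FPKM in wild type. Cebpb, a transcription factor of the same genes, was at 343.4 FPKM in the knockout library, against 329.7 FPKM in wild type. Il17a and Il22 were listed at 0 in the knockout library and, in wild type, at 0.045 and 0.044 FPKM.

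**Figure D3:**
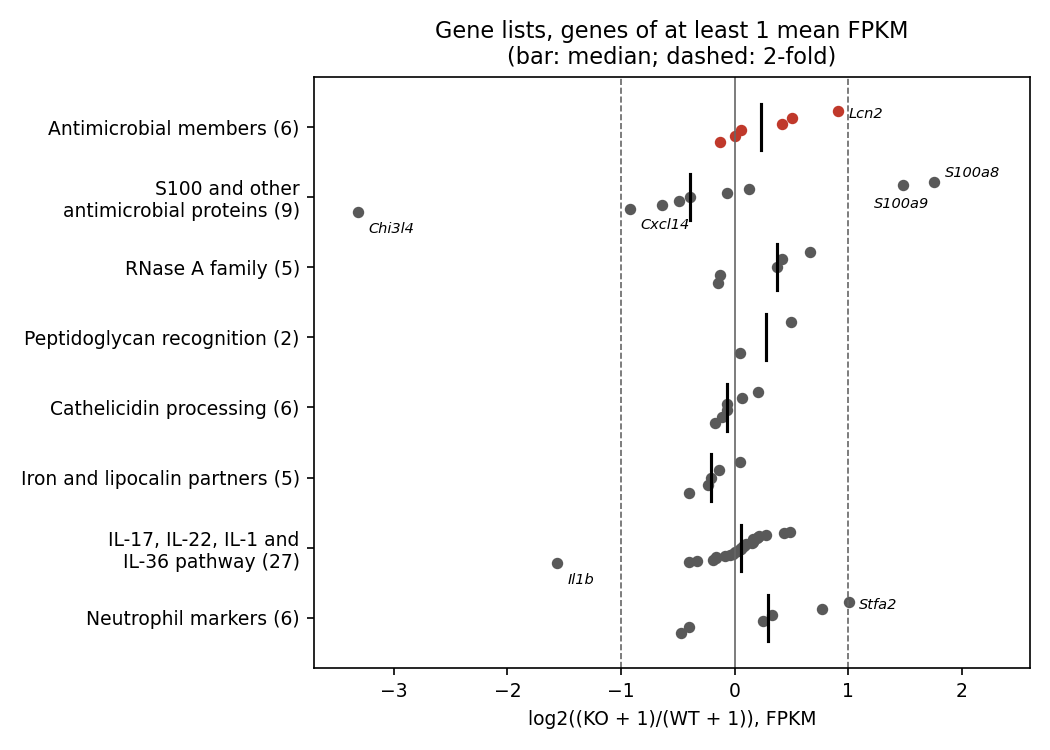
Log2 differences, knockout over wild type with 1 FPKM added, of the genes with a mean of at least 1 FPKM in each list, with the number of genes in brackets; each point is a gene or merged row, black bars are medians and dashed lines 2-fold. The 6 antimicrobial rows that pass, in red, range from -0.12 to 0.91. The genes listed with S100 and other antimicrobial proteins range from the chitinase-like gene Chi3l4 at -3.31 to S100a8 at 1.76.

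Lcn2, Camp and Pglyrp1 are also neutrophil granule genes, so neutrophil markers were read beside them. Of 20 such markers 7 were listed at 0 in both libraries: Ly6g, Elane, Ltf, Retnlg, Cd177, Fcnb and Cxcr1. A further 7 reached at most 0.0802 FPKM in the knockout library, against 0.106 FPKM in wild type: Csf3r, Mpo, Ngp, Prtn3, Mmp8, Hdc and Trem1. The remaining 6 had a mean of at least 1 FPKM: Stfa1, Stfa2, Stfa3, Cxcr2, Il1r2 and Mmp9. Other cells can express markers of this list too, and which cells gave these values was not tested. The 20 markers summed to 878.5 FPKM in the knockout library, against 717.2 FPKM in wild type. Most of each sum came from the stefin genes, which encode cysteine protease inhibitors. The other 17 markers lay in the opposite direction, summing to 47.9 FPKM in the knockout library, against 62.1 FPKM in wild type. Stfa1 was at 118.0 FPKM in the knockout library, against 68.6 FPKM in wild type, Stfa2 at 30.6 and 14.7 FPKM, and Stfa3 at 682 and 571.9 FPKM in the same order. Cxcr2, a chemokine receptor, was at 8.10 FPKM in the knockout library, against 6.25 FPKM in wild type. Il1r2, a decoy receptor, was at 38.4 FPKM in the knockout library, against 53.8 FPKM in wild type, and Mmp9 at 1.16 and 1.85 FPKM in the same order. These 6 markers thus lay in both directions, with 4 higher and 2 lower. Macrophage and monocyte markers summed to 16.9 FPKM in the knockout library, against 17.5 FPKM in wild type. Type I interferon response genes were higher in the knockout library in 18 of 18 cases, Langerhans cell markers were lower in 7 of 8 and hair follicle markers lower in 9 of 9. Of 4 sebaceous markers 3 were higher and 1 lower, with log2 differences from -0.02 to 0.13. The part of these cell and response markers in the values above was not tested.

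Sequence before a transcript start was read from RefSeq (GRCm38.p6) in 8 windows of 7 members. Defb1, Defb4 and Defb14 had no window, so Defb3 and Defb6 were the only defensins covered. By RefSeq gene spans, the window of Saa3 and the second of Rnase4 lie inside the gene. By GENCODE M21 spans, the windows of Lcn2 and Pglyrp1 and the second of Rnase4 lie inside the gene. Those of Camp, Saa3 and, by its last base, Defb3 lie inside in part. The 250 bases before the start are printed for 3 members in the rows with a ratio past 5 to 4, Lcn2 (chr2:32387740-32387989, minus strand), Defb6 (chr8:19225228-19225477, plus strand) and Defb3 (chr8:19293111-19293360, plus strand), with matches to any of 4 motifs in capitals. Both strands were searched for GGG and CC with 5 bases between them (NF-kappaB), TTGCNNAA (C/EBP), TTCNNNGAA (STAT) and GAAA repeated after 2 bases (the interferon-stimulated response element, ISRE), so some capitals spell a motif as read on the opposite strand.
Lcn2: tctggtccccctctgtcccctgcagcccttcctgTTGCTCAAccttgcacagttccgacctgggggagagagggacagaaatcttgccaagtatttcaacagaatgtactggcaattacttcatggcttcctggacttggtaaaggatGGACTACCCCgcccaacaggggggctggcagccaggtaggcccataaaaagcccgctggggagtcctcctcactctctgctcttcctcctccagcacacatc
Defb6: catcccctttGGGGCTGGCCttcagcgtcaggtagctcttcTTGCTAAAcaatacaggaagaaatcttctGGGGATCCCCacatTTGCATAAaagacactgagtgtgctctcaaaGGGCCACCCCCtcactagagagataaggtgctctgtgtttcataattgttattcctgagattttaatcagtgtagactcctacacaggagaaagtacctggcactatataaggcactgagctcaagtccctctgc
Defb3: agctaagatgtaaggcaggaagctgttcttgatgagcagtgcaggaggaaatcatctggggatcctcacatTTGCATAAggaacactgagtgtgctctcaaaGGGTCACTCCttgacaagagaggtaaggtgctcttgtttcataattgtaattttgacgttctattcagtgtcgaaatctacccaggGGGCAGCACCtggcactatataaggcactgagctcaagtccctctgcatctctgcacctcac

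The Defb3 and Defb6 windows were 81.7% identical over 235 aligned bases, more than their coding sequences at 71.9%. Both held the C/EBP match TTGCATAA, 166 to 159 bases before the start in Defb6 and 179 to 172 bases before the start in Defb3. Defb6 held 2 C/EBP matches and 4 NF-kappaB matches, of which 2 overlap by all but 1 base, and Defb3 held 1 and 2. In Lcn2 the NF-kappaB letters lay 102 to 93 bases before the start and the C/EBP letters 216 to 209 bases before it. Of 32841 promoter windows of the same length 45.8% held the NF-kappaB letters, 9.57% the C/EBP letters, 7.02% the STAT letters and 2.98% the ISRE letters. Over the 8 windows, NF-kappaB letters were in 6, those of Lcn2, Defb6, Defb3, Pglyrp1 and both for Rnase4. C/EBP letters were in 5, those of Lcn2, Defb6, Defb3 and Saa3 and 1 of 2 for Rnase4, and ISRE letters only in that of Saa3. Both NF-kappaB and C/EBP letters were in 4, among them 1 of Rnase4, whose row was lower in the knockout library. The Camp window held none of the 4, and STAT letters were in none of the 8 windows. These matches describe letters in a window, not bound sites.

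**Figure D4:**
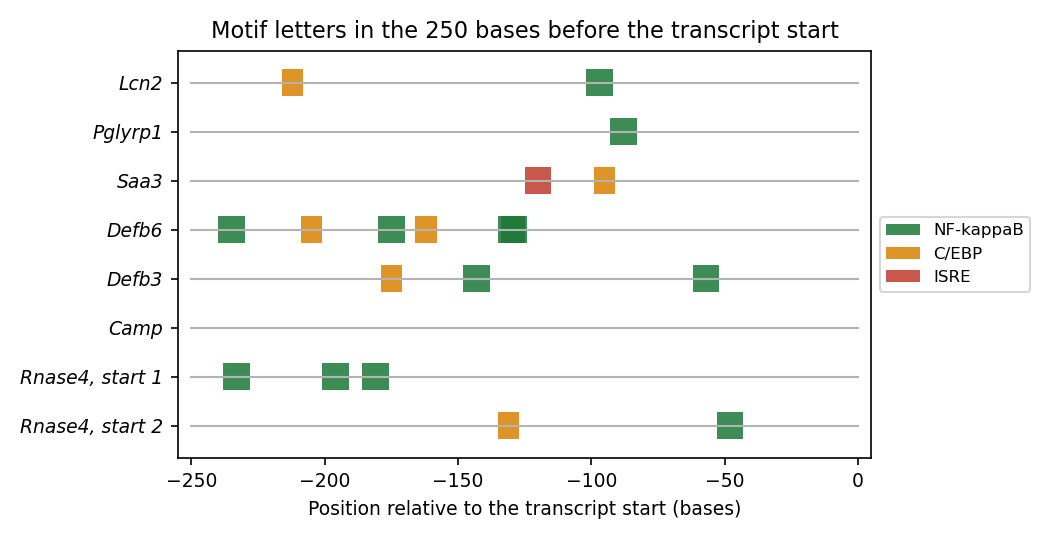
Positions of motif letters in the 250 bases before the transcript start, in bases relative to the start, for 8 RefSeq transcript starts of 7 members; green marks NF-kappaB, orange C/EBP and red ISRE letters, and overlapping matches appear darker. Lcn2, Defb6, Defb3 and the second Rnase4 start show both NF-kappaB and C/EBP letters, and Camp shows none.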

How the data were processed

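RNA-seq of imiquimod-treated ear epidermis was read from the authors' gene table, with 1 library per genotype. Per the labels' protocols, the epidermis was peeled off after dispase II (1 mg/ml for 1 h at 37 °C), and a TruSeq mRNA kit was used on 3 µg of Trizol-extracted RNA. The submitters' processing notes name TopHat2 2.0.13, Cufflinks 2.2.1 and mm10, the assembly also called GRCm38; whether strand was used, and how libraries were scaled, the sources used here do not give. The authors deposited FPKM values for each locus. Their table also holds a deposited log2 fold change, a score for the test, p-values and q-values, per the file headers, and those printed here were copied from it.

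Of 29246 rows, 26264 carried a name and a RefSeq transcript, and summing rows that share a name gave 26242 genes. Genes with a mean of at least 1 FPKM over both libraries, a filter that favours neither, formed the background (11694 genes). The 9 antimicrobial rows were used without a filter, and 6 passed it. Fragments behind a value were estimated from the lowest FPKM steps and GENCODE M21 transcript lengths, for transcripts longer than 2 fragment lengths. These are estimates, so no counting interval is given. Only the depth estimate and the 2-fold limit were tried on simulated data. The simulation held no shared rows and no transcripts as short as those of Defb3, Defb4, Defb6 and Defb14. Members and gene lists were chosen with earlier results of these data known. Named genes are all members, family genes above 0 and, in the lists of other antimicrobial, inducing and partner genes, up to 4 with the largest difference and the 3 most abundant of those with a mean of at least 1 FPKM. Marker lists are given mainly by counts and sums. Other genes named, such as Il17a, Il22, the Reg3 genes and low neutrophil markers, were picked after their values were seen. Other pseudocounts, scalings, filters, fold limits and row rules were tried. Python 3.11.15, numpy 2.4.6, pandas 2.3.3, biopython 1.88 and matplotlib 3.10.9 were used.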

Additional observations from a re-analysis of the deposited data

How the results depend on the processing

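No paired analysis was possible because each genotype has 1 library, and for the same reason no library could be left out. Each of the 9 rows kept the sign of its difference under all 5 other pseudocounts, scalings and row rules. Another pseudocount cannot change a sign, and the row rule left the values of these 9 rows unchanged. The scalings moved the median of all genes by only 0.023 and 0.031, so the kept signs are no check on the differences. The median log2 difference of the 9 rows, 0.24 as reported, was 0.51 with 0.1 FPKM added and 0.067 with 5 FPKM added, since an added value weighs most on the 3 rows under 1 FPKM. It was 0.26 centred on the median gene, 0.25 scaled on the upper quartile, 0.23 over rows of at least 1 FPKM and 0.16 without the row of Defb4 and Defb6. Rows past the limit numbered 0 at 2-fold, 1 at 1.5-fold and 3 at a ratio of 5 to 4, all higher. The 46 higher and 39 lower genes at 2-fold became 77 and 82 with 0.1 FPKM added, 16 and 16 with 5 FPKM added, 20 and 21 at a filter of 5 FPKM, 109 and 76 over deposited rows taken singly, 138 and 152 at 1.5-fold, and 505 and 660 at a ratio of 5 to 4. Lcn2 ran from 0.74 to 0.97 and Pglyrp1 from 0.080 to 0.92 over these settings. The low depth of Camp, Pglyrp1, Saa3 and Defb3 limits what their differences show.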

Other observations

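Partner genes of these proteins were read as well. Of 6 cathelicidin processing and receptor genes with a mean of at least 1 FPKM, 2 were higher and 4 lower in the knockout library, and of 5 iron and lipocalin partners 1 was higher and 4 lower. Klk5 and Klk7, proteases that process human cathelicidin, were at 129.3 and 388.0 FPKM in the knockout library, against 135.6 and 405.6 FPKM in wild type. The kallikreins Klk8 and Klk14 were at 129.4 and 1.45 FPKM in the knockout library, against 123.7 and 1.12 FPKM in wild type. The cathelicidin list also held the vitamin D receptor gene Vdr and Hif1a, which encode transcription factors. They were at 21.8 and 26.8 FPKM in the knockout library, against 23.7 and 30.3 FPKM in wild type. Slc22a17, which encodes a lipocalin-2 receptor, was at 4.69 FPKM in the knockout library, against 5.59 FPKM in wild type. Tfrc, the transferrin receptor of iron uptake, was at 41.2 FPKM in the knockout library, against 48.5 FPKM in wild type, and the ferritin heavy chain gene Fth1 at 687.3 and 666.2 FPKM in the same order. The ferritin light chain gene Ftl1 was at 225.8 FPKM in the knockout library, against 248.5 FPKM in wild type. Tlr2 and Egfr were the listed defensin receptor genes above 1 FPKM, at 1.97 and 14.7 FPKM in the knockout library, against 2.02 and 17.2 FPKM in wild type. Ccr6 was listed at 0 in both.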
